A study of Rattus norvegicus with 9 samples.

Results

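The genes described here are 10 transcription factors of the lung epithelial lineage: Nkx2-1, Sox2, Sox9, Foxa1, Foxa2, Gata6, Id2, Mycn, Cebpa and Klf5. They were chosen by name, and each was found by its NCBI Gene ID among the 17465 genes of the deposited table. All 10 passed the filter on low counts, as did 12966 genes in all. Transcripts were measured in 9 fetal lungs (strain Sprague-Dawley) by sequencing total RNA from which ribosomal RNA had been depleted. The 3 control lungs were untreated. The 3 hypoplastic lungs, which were too small because amniotic fluid was lacking (oligohydramnios), were also untreated. The 3 treated lungs were hypoplastic in the same way and had received AFSC-EV, extracellular vesicles released by amniotic fluid stem cells. Fetal age, litter, the way oligohydramnios was produced, and the dose, route and time of treatment were not stated in these sources. Nothing in the labels says that the numbered lungs of a group came from separate litters or mothers, so p-values measure the spread between these samples only.

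Nkx2-1 is the homeodomain factor that marks the lung field in the foregut, and it later drives surfactant and secretory protein genes. Foxa1 and Foxa2 are forkhead factors and Gata6 is a zinc finger factor that act beside it in branching and in maturation of the epithelium. As the tree branches, Sox9, Id2 and Mycn mark or sustain the dividing progenitors of the distal tips, while Sox2 marks the proximal airways that form behind them. Cebpa acts in the maturation of airway and alveolar epithelium, and Klf5 is a Krüppel-like factor of epithelial progenitors that takes part in the perinatal maturation of the lung. Several are not confined to epithelium: Sox9 is a master factor of cartilage, Gata6 is active in heart and smooth muscle, and Id2 and Mycn are also found in mesenchyme.

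The upstream sequences of 4 of these factors are shown because, in the correlations given further on, the levels of Nkx2-1 and Cebpa ran together across the lungs, as did, less closely, those of Foxa2 and Klf5 (Pearson's r = 0.67). Gata6, whose sequence is not shown, ran more closely with Foxa2 (r = 0.84) and with Klf5 (r = 0.76). The sequences shown are the 250 bases before the transcription start in RefSeq's GRCr8 assembly, written 5′ to 3′ on the gene's own strand. Such a sequence was found for 7 of the 10 factors, and Sox9, Foxa1 and Mycn had no entry. Capitals mark matches on either strand to 6 short motifs. These were CTCAAG, a core bound by NKX2-1, and TGTTTNC, a core bound by the forkhead factors. For GATA factors the letters were NGATAA. The CCAAT box, the GC box with the letters GGGCGG and the box of core promoters with the letters TATAAA were also searched.
Nkx2-1, chr6:79734868-79735117, minus strand: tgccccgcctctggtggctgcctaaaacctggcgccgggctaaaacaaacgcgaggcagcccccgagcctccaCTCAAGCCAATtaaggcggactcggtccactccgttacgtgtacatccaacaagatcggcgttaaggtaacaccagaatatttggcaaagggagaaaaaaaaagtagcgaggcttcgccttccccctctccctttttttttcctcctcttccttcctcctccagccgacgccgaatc
Cebpa, chr1:96896334-96896583, plus strand: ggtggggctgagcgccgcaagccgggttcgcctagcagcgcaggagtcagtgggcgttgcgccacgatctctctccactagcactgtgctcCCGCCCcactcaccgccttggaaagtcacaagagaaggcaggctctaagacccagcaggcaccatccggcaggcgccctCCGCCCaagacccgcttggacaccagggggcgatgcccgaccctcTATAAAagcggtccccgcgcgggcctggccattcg
Foxa2, chr3:155927509-155927758, minus strand: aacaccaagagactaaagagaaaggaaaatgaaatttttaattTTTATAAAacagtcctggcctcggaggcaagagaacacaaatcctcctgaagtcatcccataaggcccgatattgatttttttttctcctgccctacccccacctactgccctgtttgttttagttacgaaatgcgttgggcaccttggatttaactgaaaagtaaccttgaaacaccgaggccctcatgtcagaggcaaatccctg
Klf5, chr15:82471831-82472080, plus strand: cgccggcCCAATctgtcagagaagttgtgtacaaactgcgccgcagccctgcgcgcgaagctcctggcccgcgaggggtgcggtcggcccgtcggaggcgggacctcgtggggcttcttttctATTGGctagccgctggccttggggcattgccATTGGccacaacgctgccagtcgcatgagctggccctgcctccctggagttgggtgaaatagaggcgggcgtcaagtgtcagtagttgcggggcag
The Nkx2-1 sequence belongs to a transcript that starts 1085 bases inside the annotated gene, so at least 1 earlier start exists. It holds the NKX2-1 core and, directly after it, a CCAAT box, at bases 74 to 79 and 80 to 84. The NKX2-1 core was found in 1 of the 7 sequences, that of Nkx2-1 itself, and in 13.35% of 33469 rat promoters of this length. Cebpa had a TATA box at bases 216 to 221 and 2 GC boxes. Foxa2 had 2 overlapping TATA matches at bases 44 to 51, far from the start, and the lowest G and C content of the 7 (42.8%, against a median of 51.2% in all promoters). Klf5 had 3 CCAAT boxes, a motif found in 5 of the 7 sequences and in 34.0% of all promoters. The GC box was in 4 of the 7 and in 30.5% of all promoters, and the TATA box in 2 of the 7 and 12.9%. No match to the FOXA or GATA motif lay in any of the 7 windows, against 18.3% and 23.4% of all promoters. A match is a stretch of letters and not a measured binding site.

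Library totals ran from 56922779 to 88243188 estimated counts. The 13 general epithelial genes fixed as markers (Epcam, Cdh1, keratins, claudins and others) were above 0 in every library, so the lungs held epithelium. Their summed level, in CPM (counts per 1000000 of the TMM-scaled library size, used for all levels here), was 2450 to 2740 in control, 1971 to 2468 in hypoplastic and 2279 to 2511 in treated lungs. The thyroid, the other main site of Nkx2-1, left little trace, with Pax8 at most at 0.408 CPM in any library. Some libraries stood apart. Control library 2 had the lowest sum of the 8 mesenchymal markers (1978 CPM, against 3297 or more elsewhere) and the highest of the red cell markers (9272 CPM, against at most 5318). It also had the highest sum of liver markers (5.87 CPM, against at most 0.197 elsewhere), but Apoa1 alone made up 5.65 CPM of it. Alb, Afp and Ttr were at 0.036, 0.071 and 0.107 CPM in that library. The same library had the highest share of ribosomal and 7SL RNA (19.9%, against 14.1 to 18.3%). Hypoplastic library 2 had the highest mesenchymal sum, 14867 CPM, most of it from Col1a1, Col1a2 and Col3a1 (5816, 3230 and 5268 CPM). Pdgfra was also highest there (333 CPM), whereas Pdgfrb, Tcf21, Tbx4 and Tbx5 lay within the range of the other libraries. Hypoplastic library 1 had the highest sum of cartilage genes (1076 CPM, against at most 538) and held the basal keratins Krt5 and Krt14 at 14.9 CPM each, against at most 0.931 elsewhere. Cardiac muscle genes summed to 130 and 66.0 CPM in hypoplastic libraries 1 and 2 and to at most 9.54 CPM elsewhere. The part of these cells in the results below was not tested. Values without control library 2 are given beside some of the results that it moved, but not beside all. By their Y-linked genes, 2 control lungs, 1 hypoplastic lung and 1 treated lung were male.

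The first comparison, of hypoplastic with control lungs, asks whether the factors differ when the lung is underdeveloped. None of the 10 was called at an adjusted p under 0.05 by edgeR, where 0.00771% of all genes were. The factors with the clearest separation were Cebpa, Foxa1 and Nkx2-1, each lower in all 3 hypoplastic lungs than in any control lung. Such a separation downward was seen in 3 of the 10 factors and in 9.05% of all genes tested, and upward in 0 of the 10 and in 7.68%. It was not particular to the factors: 5 of the 13 general epithelial genes were separated downward and 0 upward. Of these 13, 11 had a log2 fold change below 0, with a median of -0.23. Of the factors, 7 had a log2 fold change below 0 and 3 above it (51.9% of all genes were above 0), with a median of -0.09 beside 0.01 over all genes. DESeq2 and limma voom also called 0 of the 10, and at an unadjusted p under 0.05 edgeR listed Cebpa, Foxa1 and Nkx2-1 (3 of 10, against 12.4% of all genes). These 3 were all lower (against 5.69% of all genes), and 0 of the 10 were higher at that p (against 6.67%).

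**Figure D1:**
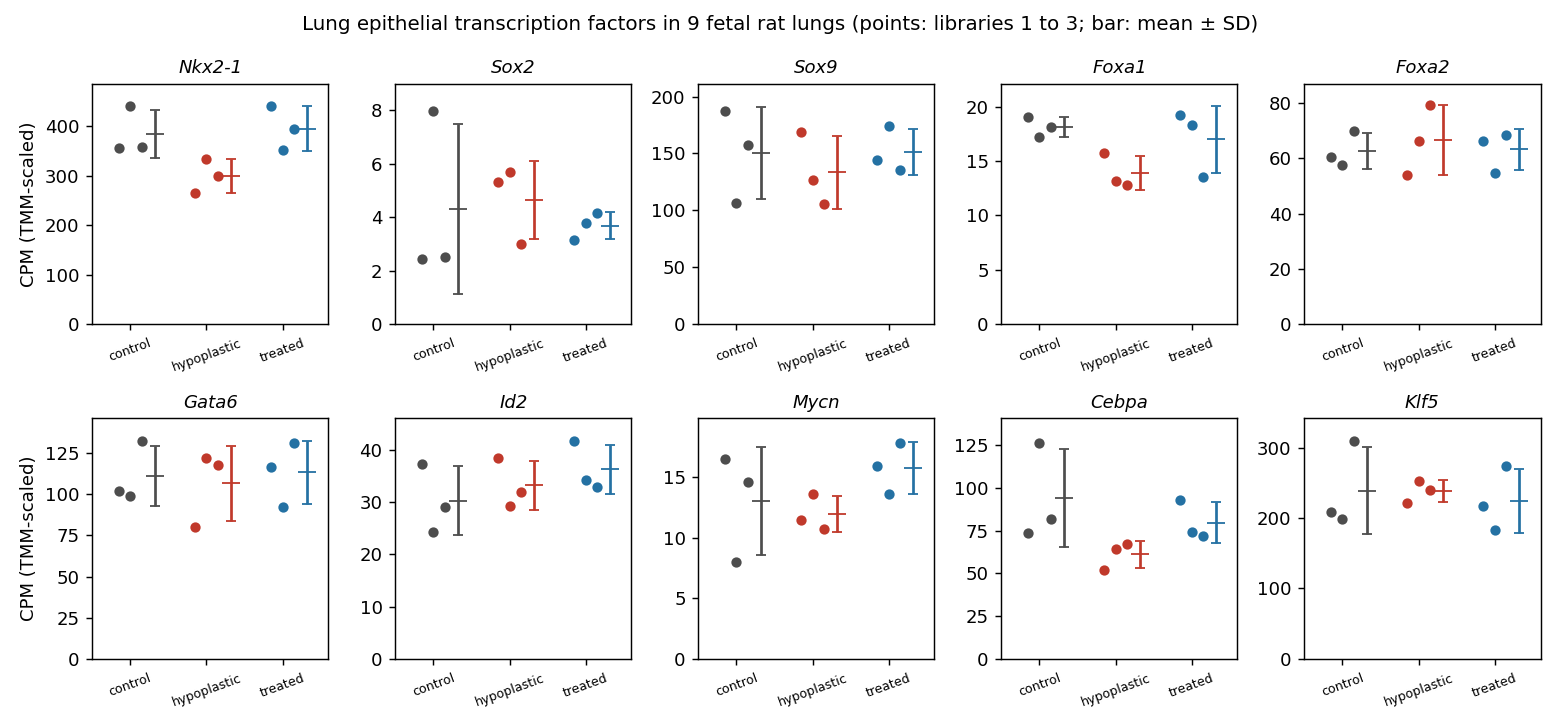
Level of each factor in CPM (vertical axes from 0) in control, hypoplastic and treated lungs, with 1 point per library in the order of the library numbers and the mean ± SD of 3 libraries beside them. The hypoplastic points of Nkx2-1, Foxa1 and Cebpa lie below all control points, whereas the points of the other 7 factors overlap.

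Nkx2-1 (Gene ID 25628) was at 356, 442 and 359 CPM in control libraries 1, 2 and 3 and at 265, 334 and 300.1 CPM in the hypoplastic libraries. The highest hypoplastic value lay just under the lowest control value, so the separation was narrow. The log2 fold change was -0.36 (SE 0.136, adjusted p by edgeR = 0.360), with a 95% interval of -0.67 to -0.06 that is not adjusted for the number of genes. Without control library 2, the library in which Nkx2-1 was highest, it was -0.26 (adjusted p = 0.812).

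Cebpa (Gene ID 24252), a CCAAT/enhancer binding protein, had the largest difference of the 10. It was at 73.7, 127 and 82.2 CPM in control and at 52.2, 64.5 and 67.0 CPM in hypoplastic lungs. Control library 2 was far above the other control libraries, and these 2 lay close above the hypoplastic ones. The log2 fold change was -0.62 (SE 0.204, adjusted p by edgeR = 0.325), and without control library 2 it was -0.35 (adjusted p = 0.769).

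Foxa1 (Gene ID 25098) was at 19.0, 17.2 and 18.2 CPM in control and at 15.7, 13.1 and 12.8 CPM in hypoplastic lungs. The control values lay close together, with an SD of 0.899 CPM around a mean of 18.1 CPM (n = 3). The log2 fold change was -0.39 (SE 0.158, adjusted p by edgeR = 0.379), and it was -0.42 without control library 2 (adjusted p = 0.766). Its relative Foxa2 (Gene ID 25099) ran differently, at 60.5, 57.6 and 69.9 CPM in control and at 54.1, 66.2 and 79.4 CPM in hypoplastic lungs. Both the lowest and the highest of its 9 values were in hypoplastic lungs, and its log2 fold change was 0.09 (95% interval -0.26 to 0.43). Whether the 2 forkhead genes differed from each other in response was not tested.

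Gata6 (Gene ID 29300) was at 102, 98.8 and 132 CPM in control and at 80.3, 122 and 118 CPM in hypoplastic lungs, with hypoplastic library 1 below all others. Its log2 fold change was -0.06 (95% interval -0.49 to 0.37). Klf5 (Gene ID 84410) was at 209, 199 and 310 CPM in control and at 221, 252 and 240.2 CPM in hypoplastic lungs. The hypoplastic values all lay within the control range, and the log2 fold change was -0.01 (95% interval -0.44 to 0.42), of either sign among the alternatives.

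Among the factors of the distal tips, Sox9 (Gene ID 140586) was at 187, 107 and 157 CPM in control and at 169, 126 and 106 CPM in hypoplastic lungs. The groups overlapped almost wholly, with a log2 fold change of -0.17 (95% interval -0.67 to 0.33), and -0.37 without control library 2. The cartilage marker sums were 431, 126 and 353 CPM in the control, 1076, 388 and 538 CPM in the hypoplastic and 492, 507 and 406 CPM in the treated libraries. Sox9 stood in the same order as this sum within the control and the treated lungs and was highest in the hypoplastic library with the most cartilage RNA. The part of cartilage in the Sox9 values was not tested. Id2 (Gene ID 25587), an inhibitor of helix-loop-helix factors, was at 37.4, 24.3 and 29.2 CPM in control and at 38.4, 29.3 and 31.98 CPM in hypoplastic lungs, which gave a log2 fold change of 0.13 (95% interval -0.26 to 0.53). Mycn (Gene ID 298894), a driver of cell division, was at 16.5, 7.97 and 14.6 CPM in control and at 11.5, 13.6 and 10.8 CPM in hypoplastic lungs. Control library 2 held the lowest value of Id2 and of Mycn among all 9 lungs. With 1 library left out at a time, the log2 fold change of Id2 ran from -0.002 to 0.32. The log2 fold change of Mycn was -0.13 (95% interval -0.68 to 0.43), and without control library 2 it was -0.38.

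Sox2 (Gene ID 499593), the proximal factor, was read from the fewest counts of the 10, with 160 to 448 estimated counts per library. It was at 2.45, 7.99 and 2.52 CPM in control and at 5.31, 5.68 and 2.99 CPM in hypoplastic lungs. Control library 2 alone lay above the hypoplastic lungs, and the other 2 control lungs lay below all of them. The log2 fold change was 0.13 (95% interval -0.87 to 1.13, adjusted p by edgeR = 0.929). Without control library 2 it was 0.91, still with an adjusted p of 0.762 by edgeR.

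**Figure D2:**
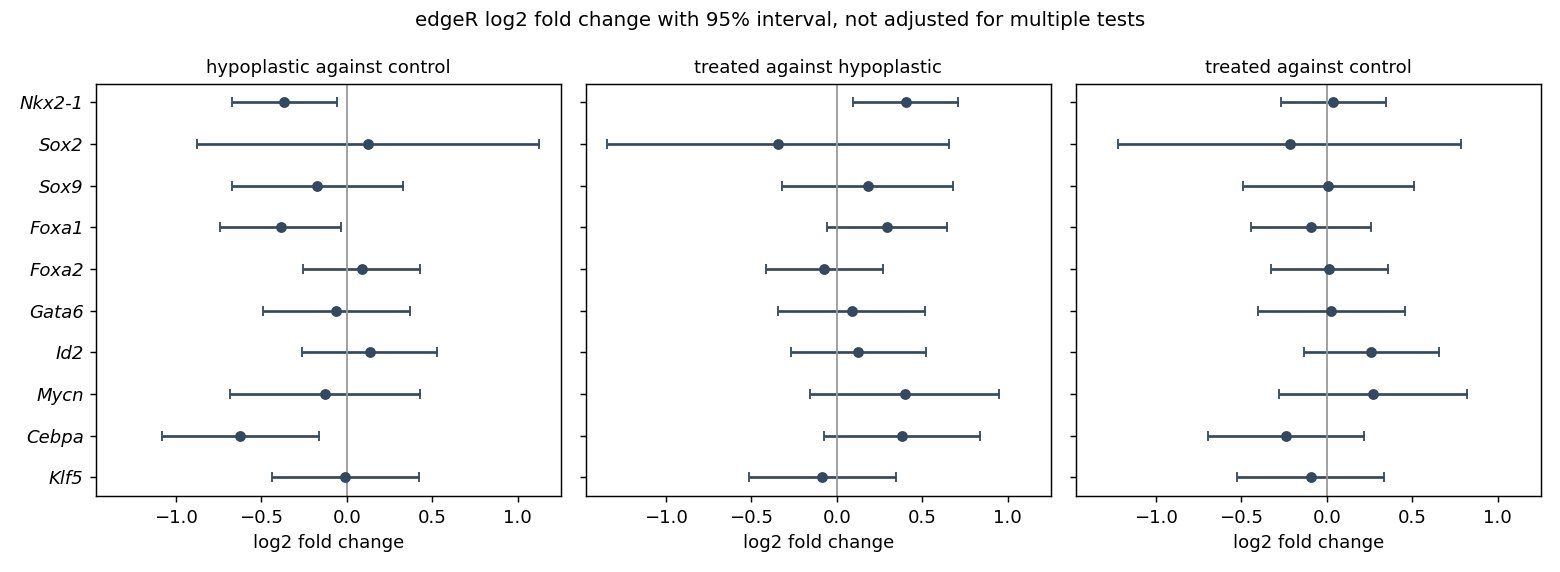
Log2 fold change (horizontal axis) of the 10 factors by edgeR in each comparison, with unadjusted 95% intervals as bars. In hypoplastic against control lungs the intervals of Nkx2-1, Foxa1 and Cebpa lie below 0, in treated against hypoplastic lungs that of Nkx2-1 lies above 0, and in treated against control lungs all 10 include 0.

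The second comparison, of treated with untreated hypoplastic lungs, asks whether the factors differ after the vesicles were given. edgeR, DESeq2 and limma voom called 0 of the 10. By limma voom 4.36% of all genes had an unadjusted p under 0.05. Among all genes edgeR called 0 of 12966 (0%), with 721 at an unadjusted p under 0.05 (5.56%), while DESeq2 called 17 (0.132%). Nkx2-1 was the 1 factor with an unadjusted p under 0.05 by edgeR (1 of 10 higher, against 2% of all genes, and 0 of 10 lower, against 3.56%). Without hypoplastic library 1 or without treated library 1, 0 were so (against 5.50 and 2.85% of all genes). Without control library 2 they were Nkx2-1, Mycn and Cebpa (3 of 10, against 7.30%). The same 3 were listed with only the 6 libraries compared (against 5.10%). Without treated library 3 they were Nkx2-1 and Foxa1 (against 7.39%). Nkx2-1 and Cebpa were higher in all 3 treated lungs than in any untreated hypoplastic lung, 2 of the 10, where 9.81% of all genes were separated in either direction and 5.07% upward, and 0 of the 10 were separated downward, against 4.74%. The median log2 fold change of the 10 was 0.15, beside -0.01 over all genes, with 7 above 0 (against 48.1% of all genes). The hypoplastic libraries of this comparison also served in the first, so a high or low value among them enters both.

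Nkx2-1 was at 441, 352 and 394 CPM in treated libraries 1, 2 and 3, against 265 to 334 CPM in untreated hypoplastic lungs. Treated library 2 lay only just above hypoplastic library 2, and in CPM of the library total, without the TMM factor, these 2 changed places (333.44 against 335.44). The log2 fold change was 0.40 (SE 0.136, adjusted p by edgeR = 0.859, 95% interval 0.10 to 0.71). Left out 1 at a time, the 9 libraries gave log2 fold changes of 0.32 to 0.49. Cebpa was at 93.3, 74.5 and 71.7 CPM in treated lungs, against 52.2 to 67.0 CPM in untreated ones, and it was separated on either scale. Its log2 fold change was 0.38 (SE 0.204, adjusted p by edgeR = 0.901), and 0.26 without treated library 1.

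Foxa1 was at 19.3, 18.3 and 13.5 CPM in treated lungs. Treated library 3 lay within the untreated range and the other 2 above it, and the log2 fold change was 0.29 (95% interval -0.06 to 0.65), or 0.44 without treated library 3. Mycn was at 15.9, 13.6 and 17.8 CPM, the last being its highest value in any lung, with a log2 fold change of 0.40 (95% interval -0.15 to 0.95). In treated library 2 Mycn (13.57 CPM) lay just under its highest untreated value (13.64 CPM, hypoplastic library 2), so the groups overlapped. Id2 was at 41.7, 34.2 and 32.9 CPM, a log2 fold change of 0.13 (95% interval -0.27 to 0.52). Sox9 was at 144, 175 and 136 CPM, a log2 fold change of 0.18 (95% interval -0.32 to 0.68).

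Foxa2 (66.4, 54.9 and 68.6 CPM), Gata6 (117, 92.5 and 131 CPM) and Klf5 (216, 182 and 274 CPM) were each lowest in treated library 2 among the treated lungs. Their log2 fold changes from the untreated hypoplastic lungs were -0.07, 0.09 and -0.09, all 3 with intervals on both sides of 0. Sox2 was at 3.13, 3.79 and 4.14 CPM, within the untreated range, and had a log2 fold change of -0.34 (95% interval -1.34 to 0.66). For Sox2 the interval leaves room for a large difference in either direction.

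The third comparison, of treated with control lungs, asks what differed from untreated normal lungs after treatment. No factor was called by edgeR, DESeq2 or limma voom, where edgeR called 0% and DESeq2 0.108% of all genes (0.0232% lower). By limma voom 3.86% of all genes had an unadjusted p under 0.05. At an unadjusted p under 0.05 edgeR listed 0 of the 10, against 4.17% of all genes (1.67% higher and 2.5% lower). Id2 alone was listed without control library 1 (against 4.35% of all genes) and with a term for replicate number (against 3.72%). In 0 of the 10 were the groups separated, against 9.39% of all genes (4.37% upward and 5.02% downward). Of the 10, 6 were above 0 (against 50.6% of all genes), and the median log2 fold change was 0.01, beside 0.00 over all genes. Nkx2-1 was at 395.87 CPM ± 44.8 (SD, n = 3) in treated and 385.35 CPM ± 48.9 (SD, n = 3) in control lungs, which gave a log2 fold change of 0.04 (95% interval -0.27 to 0.34). Cebpa was at 79.8 CPM ± 11.7 (SD, n = 3) in treated and 94.2 CPM ± 28.5 (SD, n = 3) in control lungs, which gave a log2 fold change of -0.24 (95% interval -0.69 to 0.22). Without control library 2 it was 0.03. Foxa1 differed by -0.09 (95% interval -0.44 to 0.26). The values furthest above 0 were those of Mycn, 0.27 (95% interval -0.28 to 0.82), and Id2, 0.26 (95% interval -0.14 to 0.66), each with an edgeR adjusted p of 0.998. These 2 differences were 0.02 and 0.12 without control library 2, where both factors were lowest. Sox9 and Foxa2 differed by 0.01 each, Gata6 by 0.03, Klf5 by -0.09 and Sox2 by -0.22.

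The balance of proximal and distal factors was taken as log2 Sox2 CPM minus log2 Sox9 CPM within each library, which does not depend on the library's size. It was -6.26, -3.74 and -5.96 in the control libraries, -4.99, -4.47 and -5.15 in the hypoplastic libraries and -5.52, -5.53 and -5.03 in the treated libraries. The control lungs spanned a wider range than the other 6 lungs together, with control library 2 at the Sox2 end and control libraries 1 and 3 at the Sox9 end. The hypoplastic mean was higher than the control mean by 0.45 (exact permutation p = 0.60, two-sided) and the treated mean was lower than the hypoplastic mean by 0.49, a difference of -0.49 (exact permutation p = 0.20, two-sided). Treated and control means differed by -0.04 (exact permutation p = 1, two-sided). Adjusted over these 3 tests the exact permutation p-values were 0.90, 0.60 and 1, and with 3 lungs against 3 none can fall below 0.1. Without control library 2 the first difference was 1.24, and the third was 0.75 in place of -0.04.

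**Figure D3:**
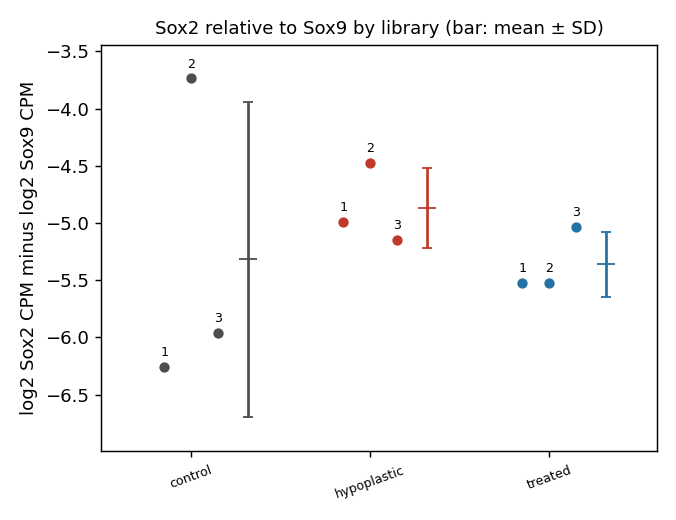
Log2 Sox2 CPM minus log2 Sox9 CPM (vertical axis) in each library, numbered 1 to 3 within its group, with the mean ± SD of 3 libraries beside the points. Control library 2 lies at -3.74, above all others, and control libraries 1 and 3 lie below all others at -6.26 and -5.96.

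In whole lungs, fewer epithelial cells and less RNA of a factor per cell cannot be told apart. Each factor was therefore also set against the summed level of the 13 general epithelial genes in the same library. On this scale 0 of the 10 factors were separated between hypoplastic and control lungs, whereas 3 were separated in CPM. The sum was lower in the hypoplastic lungs on average, which moves all genes of a library alike: on this scale 23.7% of all genes tested were separated, 21.9% upward and 1.77% downward, and 82% of the 12843 genes above 0 in all 6 libraries had a difference above 0. Nkx2-1 made up 14.1, 16.1 and 14.6% of that sum in control lungs, 10.7, 16.9 and 13.7% in hypoplastic lungs and 18.5, 14.0 and 17.3% in treated lungs. The wide hypoplastic range spanned the control values, and the difference of hypoplastic from control was -0.14 in log2 (exact permutation p = 0.60, two-sided). Relative to the same sum, Cebpa differed by -0.37 (exact permutation p = 0.40) and Foxa1 by -0.17 (exact permutation p = 0.30). With 1 library left out at a time, the difference of Cebpa ran from -0.51 to -0.18. Of the 10 factors, 7 were higher relative to the sum in hypoplastic than in control lungs, beside that 82% of genes, with Sox2 (0.51), Id2 (0.37) and Foxa2 (0.30) furthest up in log2. With 1 library left out at a time, Sox2 ran from 0.23 to 1.02, Id2 from 0.17 to 0.55 and Foxa2 from 0.16 to 0.52. Id2 made up 1.48, 0.886 and 1.19% of the sum in control and 1.56, 1.49 and 1.46% in hypoplastic lungs, an overlap through control library 1. Between treated and hypoplastic lungs the largest difference above 0 on this scale was that of Nkx2-1, 0.29 (exact permutation p = 0.20, two-sided). Over all 30 tests on this scale the lowest adjusted exact permutation p was 0.938. With 3 lungs against 3 no exact p can fall below 0.1, so no adjusted value here could have been under 0.05.

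**Figure D4:**
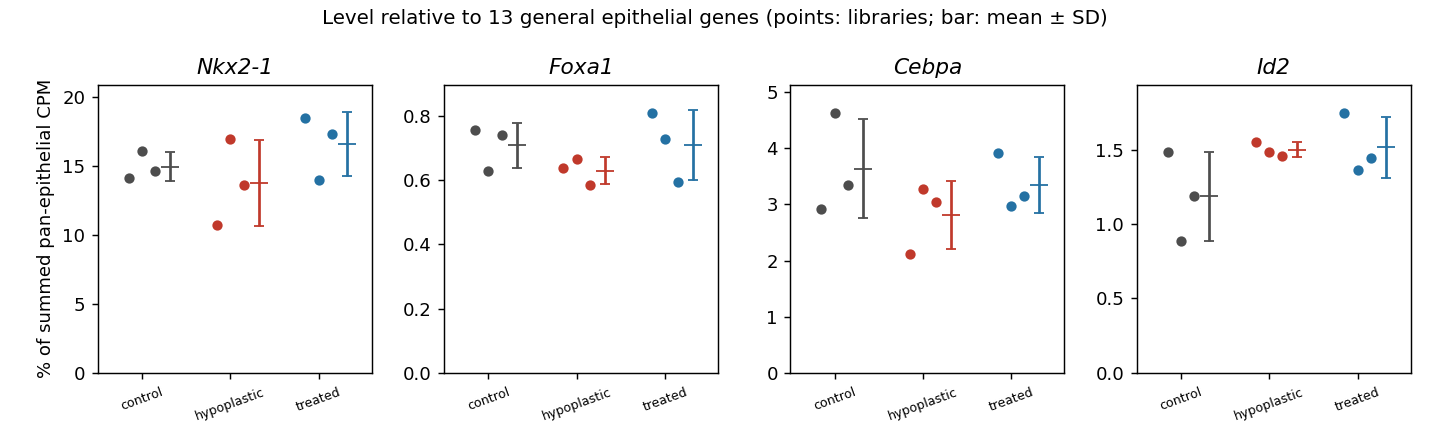
Level of Nkx2-1, Foxa1, Cebpa and Id2 as a percentage of the summed CPM of 13 general epithelial genes (vertical axes from 0) in each library, with the mean ± SD of 3 libraries per group. On this scale the hypoplastic and control points overlap for all 4 factors.

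The factors did not vary as 1 block across the lungs. Pearson's r of log2(CPM + 0.5), given as a description over 9 libraries that share group, depth and cell make-up, was above 0 in 21 of the 45 pairs, with a median of -0.11. Nkx2-1 and Cebpa ran most closely together, with r = 0.87 and Spearman's rho = 0.87. Their r was 0.85 after the group means were taken out and 0.90 without control library 2. Foxa2 and Gata6 (r = 0.84), Gata6 and Klf5 (r = 0.76) and Foxa2 and Klf5 (r = 0.67) ran together in the same way, as did, more loosely, the distal factors Sox9, Id2 and Mycn (r = 0.59 to 0.62). Without control library 2, r was 0.42 for Sox9 and Id2, 0.34 for Sox9 and Mycn and 0.14 for Id2 and Mycn. The lowest r was -0.64, between Sox2 and Mycn, and it was -0.27 without that library. Other pairs ran more closely or more oppositely once control library 2 was left out. Sox9 and Foxa1 went from 0.59 to 0.79, Nkx2-1 and Mycn from 0.11 to 0.83, and Mycn and Cebpa from -0.32 to 0.60. Sox9 and Foxa2 went from -0.51 to -0.82, then the lowest r, and Sox2 and Cebpa from 0.21 to -0.66. Foxa1 and Foxa2 ran in opposite directions (r = -0.49).

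**Figure D5:**
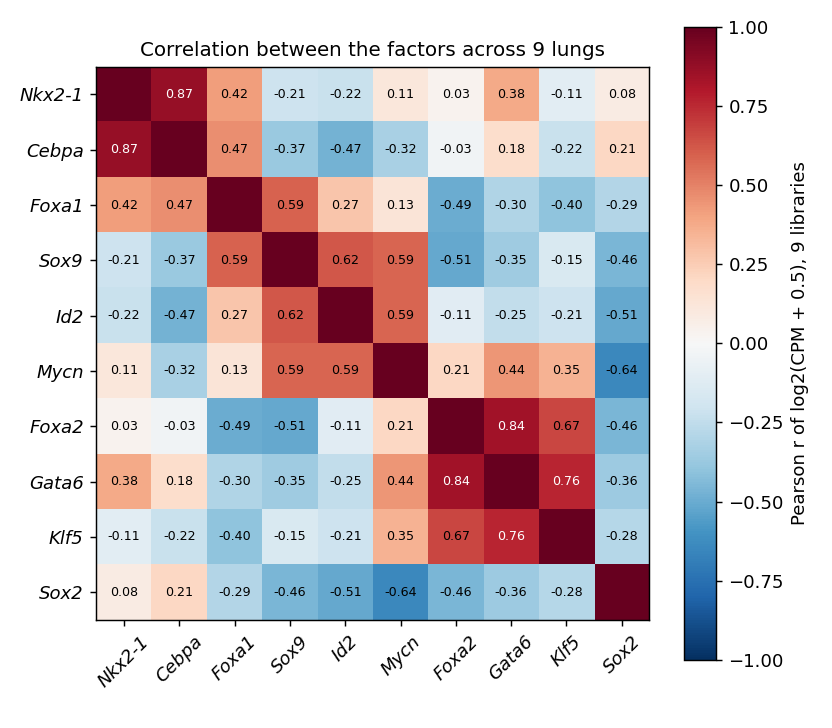
Pearson's r between each pair of the 10 factors across the 9 libraries, with red above 0 and blue below 0. Nkx2-1 and Cebpa (0.87) and the trio Foxa2, Gata6 and Klf5 (0.67 to 0.84) stand out above 0, and Sox2 with Mycn (-0.64) is the lowest pair.

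Control library 2 set the range for several factors. Against the mean of the other 2 control lungs, its log2 level was 1.68 higher for Sox2, 0.70 higher for Cebpa and 0.31 higher for Nkx2-1. For Mycn, Sox9, Id2 and Klf5 the same difference was -0.96, -0.69, -0.45 and -0.38. It held the highest value of 3 factors among all 9 lungs and the lowest of 2, while hypoplastic library 1 held the lowest of 4. Among 11352 genes that had a symbol and averaged 1 CPM or more, those whose levels followed Nkx2-1 most closely over the 9 libraries were Zmiz2 (r = 0.99), Sipa1l3 (r = 0.97) and Doc2a (r = 0.97). Those nearest to Sox2 were Fam81a (r = 0.92), Cfap126 (r = 0.90) and Dennd10 (r = 0.89), and those nearest to Sox9 were Nfia (r = 0.94), Fstl3 (r = 0.93) and Nsg2 (r = 0.91). Picked as the highest of so many genes, these values are high by choice.

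Genes that act downstream of the factors had lower values in the hypoplastic lungs throughout the list. Of 14 such epithelial genes 13 were tested, among them the surfactant protein genes, and all 13 had a log2 fold change below 0 in hypoplastic against control lungs (51.9% of all genes were above 0). Their median was -0.77, beside 0.01 over all genes, and 8 of the 13 were separated downward (against 9.05% of all genes). edgeR called 0 of them and DESeq2 called 5: Sftpb, Sftpc, Ctsh, Slc34a2 and Cldn18, where DESeq2 called 1.56% of all genes (0.658% lower). The size of these differences depended on control library 2. Without it the median of the 13 was -0.40, 12 were below 0 and 8 were separated downward (against 11.4% of all genes in that setting). DESeq2 then called Sftpc alone (DESeq2 adjusted p = 0.0496), against 0.508% of all genes. Left out 1 at a time, the 9 libraries gave 1 to 8 DESeq2 calls (against 0.508 to 2.11% of all genes), with 1 also without hypoplastic library 1 or hypoplastic library 2. The log2 fold changes of Ctsh, Sftpb and Slc34a2 were -1.09, -0.84 and -0.86 with all libraries and -0.64, -0.51 and -0.56 without control library 2. The pattern of the surfactant genes in these lungs was known when the list was made, so it is not independent evidence. Sftpd, an innate defence protein of the airspace, had the lowest value. It was at 56.9, 182 and 97.9 CPM in control and at 42.8, 58.6 and 51.6 CPM in hypoplastic lungs, which gave a log2 fold change of -1.14 (SE 0.357, adjusted p by edgeR = 0.323). It was -0.60 without control library 2 (adjusted p by edgeR = 0.766). Napsa, a protease that processes surfactant proteins, had the highest, -0.22 (SE 0.166), or -0.09 without that library. In treated against hypoplastic lungs all 13 were above 0 (against 48.1% of all genes), with a median of 0.45, or 0.28 without treated library 1, and 5 were separated upward (against 5.07% of all genes). Sftpd again had the largest difference, at 99.6, 63.4 and 83.3 CPM in treated lungs, which gave a log2 fold change of 0.69 (SE 0.354, adjusted p by edgeR = 0.901). Scgb3a2, a secretoglobin of airway cells, had the smallest, 0.07, which took either sign as libraries were left out.

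Of 24 other epithelial transcription factors, 23 were tested and 0 were called by edgeR in any comparison. In hypoplastic against control lungs 17 of the 23 were below 0, with a median of -0.21, and 7 were separated downward (against 9.05% of all genes) and 1 upward (against 7.68%). The median was -0.11 without control library 2, with 8 separated downward (against 11.4% of all genes when that library was left out). DESeq2 called Irx2, an Iroquois homeodomain gene, at -0.56 (DESeq2 adjusted p = 0.0343), 1 of the 23 against 1.56% of all genes, and not without control library 2 (DESeq2 adjusted p = 0.269). It was also not called without control library 1 or 3, hypoplastic library 2 or 3, or treated library 2. Hopx, a homeodomain gene of alveolar type I cells and their progenitors, had the lowest value, -0.89 (SE 0.374), and it was at 163.77 CPM in control library 2 against 37.2 to 100.2 CPM elsewhere. Without that library its log2 fold change was -0.48. Trp63, the basal cell factor, had the highest, 1.79 (SE 0.722), which came from hypoplastic library 1 (8.30 CPM, against 1.60 CPM or less elsewhere), the library that also held Krt5 and Krt14, and was 0.11 without it. Grhl2, a factor of epithelial junctions, was at 59.2, 83.8 and 59.7 CPM in control, 50.8, 47.6 and 49.95 CPM in hypoplastic and 71.2, 59.3 and 59.0 CPM in treated lungs, so that the hypoplastic lungs lay below both other groups. Its log2 fold changes were -0.45 (adjusted p by edgeR = 0.325), or -0.27 without control library 2, and, for treated against hypoplastic, 0.35 (adjusted p by edgeR = 0.896). Grhl2, Irx2 and the genes named for their DESeq2 calls were chosen after their values were seen. In the treated against hypoplastic lungs 17 of the 23 were above 0 (against 48.1% of all genes), with a median of 0.12. Of the 23, 4 (Foxp1, Foxp2, Foxp4 and Grhl2) were separated upward, against 5.07% of all genes, and 0 downward, against 4.74%. Leaving out 1 library at a time gave medians up to 0.27 (without hypoplastic library 1) and 4 to 9 separated upward, against 5.08 to 12.9% of all genes in these settings. Foxp4, a forkhead factor of airway epithelium, had the highest value of the 23. It was at 121, 90.1 and 113.6 CPM in treated, 63.5, 82.7 and 71.9 CPM in hypoplastic and 84.0, 83.4 and 86.4 CPM in control lungs, and its log2 fold change was 0.58 (SE 0.133, adjusted p by edgeR = 0.826). DESeq2 called Foxp4 only without hypoplastic library 2 or without treated library 2 (against 0.0993 and 0.160% of all genes).

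Of 18 relatives of the 10 factors, 14 were above 0 and 4 below in hypoplastic against control lungs (51.9% of all genes were above 0), a median of 0.19 that was 0.06 without hypoplastic library 2. None was called by edgeR, and 2, Cebpb (lower) and Sox8 (higher), were called by DESeq2 (against 1.56% of all genes), and 0 by DESeq2 without control library 2, control library 3 or hypoplastic library 2. Sox8 was near the floor, at 0.061 to 0.125 CPM in control and 0.561 to 0.869 CPM in hypoplastic lungs. Of the 18, 2 were separated downward (against 9.05% of all genes) and 2 upward (against 7.68%). In treated against hypoplastic lungs 1 was separated upward (against 5.07% of all genes) and 3 downward (against 4.74%). Cebpb, the sister gene of Cebpa, had the lowest log2 fold change among the 18 relatives. It was at 181, 183 and 222 CPM in control, 145, 136 and 103 CPM in hypoplastic and 178, 156 and 192 CPM in treated lungs. As for Cebpa, its untreated hypoplastic values lay below those of both other groups without overlap, a pattern that was not counted over all genes. The other 2 CCAAT/enhancer binding protein genes of the list did not follow. Cebpd was at 17.7, 9.83 and 26.2 CPM in control and 23.9, 54.0 and 20.3 CPM in hypoplastic lungs, a log2 difference of 0.87 that was 0.30 without hypoplastic library 2, and Cebpg had a log2 fold change of 0.13. Both overlapped between the groups. The log2 fold changes of Cebpb were -0.61 (SE 0.147, adjusted p by edgeR = 0.317, DESeq2 adjusted p = 0.0275) and, for treated against hypoplastic, 0.46 (SE 0.147, adjusted p by edgeR = 0.859). Gata4, a relative of Gata6 known from heart, was at 3.98, 11.04 and 1.61 CPM in hypoplastic and 2.67, 1.23 and 4.08 CPM in control lungs, with the high value in hypoplastic library 2. The cardiac muscle sum was 66.0 CPM in that library and 130 CPM in hypoplastic library 1, where Gata4 lay within the control range. Its log2 fold change was 1.05 (SE 0.649), and -1.001 for treated against hypoplastic lungs, or 0.07 and -0.02 without hypoplastic library 2.

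Of 14 genes of the signals that act on these factors, 0 were called by edgeR, and in hypoplastic against control lungs 9 were above 0 and 5 below (51.9% of all genes were above 0), with a median of 0.04. Leaving out control library 2 put 2 above 0 and 12 below, with a median of -0.06, and the median was also below 0 without hypoplastic library 2 (-0.02) or hypoplastic library 3 (-0.04). Shh, the hedgehog ligand of the epithelium, had the lowest value. It was at 16.0, 20.1 and 15.4 CPM in control and at 11.7, 12.7 and 13.6 CPM in hypoplastic lungs, without overlap, a log2 fold change of -0.44 (SE 0.195, adjusted p by edgeR = 0.401). In treated lungs it was at 20.6, 12.4 and 17.9 CPM, which overlapped both groups, with a log2 fold change of 0.42 from the hypoplastic lungs. Lef1, a nuclear partner in Wnt signalling, had the highest value in the first comparison, 0.23, or 0.07 without control library 2. Rarb, a retinoic acid receptor, had the lowest in the second, -0.13, or 0.19 without hypoplastic library 2. The median of the 14 there was 0.09, or -0.02 without hypoplastic library 1.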

How the data were processed

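Transcripts in 9 fetal rat lungs, 3 per group by the titles in the labels, were read from 1 deposited table of estimated counts. The authors deposited values with fractions (19.5% of nonzero values were exactly whole, no tolerance), and column totals differ, so they were treated as estimated counts and rounded before each test. The submitters' processing notes name rn7 and DESeq2 without a role, while the aligner, the counter and the annotation were not stated in these sources. Symbols came from RefSeq's GRCr8 table, which matched 17314 IDs (99.1%). RNA of all libraries was extracted on 1 day, per the labels' protocols.

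All 9 libraries entered 1 edgeR 4.0.16 fit (R 4.3.3, glmQLFit with legacy=FALSE, glmQLFTest) with TMM factors and filterByExpr, leaving 6 residual degrees of freedom. P-values were adjusted by Benjamini-Hochberg over the 12966 genes tested. Standard errors were taken as |log2 fold change| over the root of F, and 95% intervals use the moderated degrees of freedom. Exact two-sided permutation tests used all 20 splits of 6 libraries. The scripts for the tests across genes were tested on simulated data. Alternatives were DESeq2 1.42.0, limma 3.58.1 (voom), RLE factors, other filters, added terms for replicate number or sex, removal of 6 ribosomal and 7SL rows, only the libraries compared, and each library left out. CPM of the library total, the lists with each library left out and the all-gene shares relative to the epithelial sum were added after the values were seen. The factors, the lists and the tests were chosen with earlier results of these data known. Named genes were the 10 factors, the highest and lowest gene of each list with a mean of at least 1 CPM in the first and second comparison, and the 3 genes nearest to Nkx2-1, Sox2 and Sox9. Sox21 and Muc1 had no row matched by symbol and were not analysed here.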

Additional observations from a re-analysis of the deposited data

How the results depend on the processing

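No alternative called any of the 10 factors. Over all genes, edgeR's call of 1, 0 and 0 genes in the 3 comparisons became 202, 17 and 14 with DESeq2. In hypoplastic against control lungs it became 4 with only the 6 libraries compared and 2 with the replicate block. With 1 library left out at a time the calls ran from 0 to 45, 0 to 44 and 0 to 1. Of the log2 fold changes of the factors, 265 of 270 values under the other settings kept their sign, as did 238 of 270 with a library left out. Near 0, that of Klf5 in hypoplastic against control lungs was 0.02246 with limma voom, 0.0002952 with a CPM filter and 0.02716 with the replicate block. In treated against control lungs, Sox2 was at 0.0512 with limma voom and Sox9 at -0.08607 with the sex covariate. Relative to the epithelial sum, Id2 in treated against hypoplastic lungs was -0.01483 with the mean log2 of the epithelial genes, and Klf5 in treated against control lungs was -0.00883 with that mean and -0.02007 with Epcam alone. The cause was not tested.

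With 1 library left out, the factors whose log2 fold change took both signs were, in hypoplastic against control lungs, Sox2 -0.1485 to 0.9079, Sox9 -0.3757 to 0.0215, Foxa2 -0.05949 to 0.2159, Gata6 -0.1682 to 0.1085, Id2 -0.002351 to 0.3184, Mycn -0.3805 to 0.0832 and Klf5 -0.126 to 0.2221. In treated against hypoplastic lungs these were Foxa2 -0.2009 to 0.07495, Gata6 -0.08096 to 0.2153 and Klf5 -0.2526 to 0.04454. In treated against control lungs these were Nkx2-1 -0.04619 to 0.1487, Sox2 -0.4891 to 0.5671, Sox9 -0.1866 to 0.2121, Foxa1 -0.1891 to 0.04998, Foxa2 -0.04597 to 0.1083, Gata6 -0.08878 to 0.1732, Cebpa -0.3714 to 0.03485 and Klf5 -0.2612 to 0.1382. Nkx2-1, Foxa1 and Cebpa kept their sign in the first and second comparison. At an unadjusted p under 0.05 in the first, Cebpa was listed under every setting run. Nkx2-1 was not with the sex covariate or without control library 2, hypoplastic library 1 or hypoplastic library 3, and Foxa1 was not without control library 1, control library 3, hypoplastic library 2 or hypoplastic library 3, while Sox2 was listed without control library 2. Relative to the epithelial sum the ranges across both signs were, in hypoplastic against control lungs, Nkx2-1 -0.3037 to 0.02643, Sox9 -0.2162 to 0.2517, Gata6 -0.04082 to 0.4244 and Mycn -0.2112 to 0.375. In treated against hypoplastic lungs they were Sox9 -0.07099 to 0.1819, Gata6 -0.2958 to 0.1695 and Id2 -0.09721 to 0.0839. In treated against control lungs they were Sox2 -0.1765 to 0.6151, Sox9 -0.134 to 0.3339, Foxa1 -0.104 to 0.1191, Gata6 -0.01732 to 0.3033, Cebpa -0.2473 to 0.08273 and Klf5 -0.1686 to 0.2545. Sox2 minus Sox9 ran from -0.01968 to 1.24 in hypoplastic against control and from -0.5104 to 0.7491 in treated against control lungs.

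No label says that replicate numbers mark a pairing of lungs. Deviations from the group means had correlations of -0.368 to 0.312 for libraries with the same number (median 0.025, with 3 of 9 over 0.1) and of -0.535 to 0.501 for the rest. With the replicate block, which gave 2, 0 and 0 calls, none of the 10 factors was called. With 3 lungs a group, the intervals of the factors leave room for differences of 0.3 or more in log2.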
